A study of Mus musculus with 12 samples.

Results

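The genes described here are expressed neighbours of Apoe on mouse chromosome 7, without certain named genes, some ion channel genes and ribosomal protein genes. They are the genes of build GRCm38 whose start lies from position 9696109 to 29696109, which is 10 Mb to either side of the Apoe start, and whose mean level was at least 0.5 CPM (a gene's counts scaled to a common library total) over 11 libraries. Apoe itself, 9 other named genes of the interval (Igsf23, Bcam, Trappc6a, Ercc2, Vasp, Pnmal2, Ccdc8, Blvrb and Lgals4) and symbols starting with Rpl, Rps, Mrpl, Mrps, Kcn, Scn or Hcn were left out. This gave 162 members of the 55335 genes in the count tables. The interval held 983 listed genes. Of the 162 members, 153 are protein coding, 4 are antisense RNAs, and the other 5 are a lincRNA, a sense intronic RNA and 3 pseudogenes. The names left out had been chosen from measured genotype differences of these same libraries, so counts over the remaining members describe them and are no independent evidence.

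RNA came from cardiomyocytes of male mice aged 7 to 8 weeks that were given their diet for 7 weeks. By their labels, ApoeKO_HFD mice carried the knockout allele (ApoE KO, B6.129P2-Apoe tm1Unc/J) and ate a high fat Western diet with 0.21% cholesterol. ApoeKO_CD mice were labelled with that allele and ate standard chow, though their Apoe level, given below, goes against the label. WT_HFD mice were labelled C57BL/6J on the high fat diet, and WT_CD mice C57BL/6J on chow. Each group had 3 libraries, and all 12 were made from total RNA. The knockout allele is constitutive, so it is present in every tissue and not in heart cells alone. Nothing in the labels says whether the replicates were separate animals.

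Apoe encodes apolipoprotein E, a lipid-carrying protein made mainly by liver and by macrophages, and its loss raises plasma cholesterol. The chromosome segment around it is dense in genes and is known for muscle genes such as Ckm and Dmpk, NF-kappaB family genes such as Relb and Bcl3, DNA repair genes and clusters of KRAB zinc finger genes. The name of the allele records that it was made in cells of strain 129P2 and brought into C57BL/6 mice. Genes close to a targeted allele tend to be inherited with it, so a congenic line can carry the donor strain's version of such neighbours. Sequence origin at these genes was not tested.

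Library totals ranged from 22130323 to 46424614 counts in 11 libraries, of which mitochondrial genes took 51.5% to 71.3%. WT_HFD replicate 3 had 1347110 counts and earlier results of these data place its counts on the opposite strand, so WT_HFD is represented by 2 libraries below. Members held 0.590% to 0.722% of the counts that were not mitochondrial, and no member was at 0 in any of the 11 libraries. Summed levels of 5 cardiomyocyte markers were 35218 to 40251 CPM in ApoeKO_HFD, 39795 to 41467 in ApoeKO_CD, 35600 to 37703 in WT_HFD and 44359 to 48675 in WT_CD. Summed levels of 5 macrophage markers were 4.97 to 7.08, 3.08 to 18.9, 2.67 to 12.3 and 5.29 to 12.1 CPM in the same order of groups, and those of 4 atrial markers were 17.8 to 83.0, 105 to 121, 7.23 to 174 and 70.9 to 123 CPM. Those of 4 fibroblast markers were 9.80 to 12.7, 6.36 to 12.8, 14.4 to 15.7 and 6.79 to 12.9 CPM. Cardiomyocyte markers were thus higher in every WT_CD library than in the other groups, fibroblast markers higher in both WT_HFD libraries than in the other groups, and atrial markers lower in ApoeKO_HFD than in ApoeKO_CD without overlap. For endothelial, lymphocyte, erythroid, and smooth muscle and pericyte markers the groups overlapped in all 5 pairwise comparisons. No marker of these 8 lists was at 0 in all libraries, and their part in the results below was not tested. In bulk RNA, fewer cells of a type and less RNA per cell cannot be told apart.

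Apoe, the targeted gene, lies at chr7:19696109-19699188 on the minus strand. It had 1.94, 3.02 and 3.16 CPM, scaled by TMM factors, in the libraries labelled ApoeKO_HFD, against 18.9 and 8.44 CPM in those labelled WT_HFD. It had 25.3, 23.9 and 6.93 CPM in the libraries labelled ApoeKO_CD, against 2.91, 2.12 and 3.61 CPM in those labelled WT_CD. The chow libraries therefore go against their genotype labels, since the Apoe level was higher in every library labelled ApoeKO_CD than in every library labelled WT_CD. On the log2 scale the genotype difference was −2.34 ± 0.55 (SE) on the high fat diet and 2.69 ± 0.53 on chow, with adjusted p = 0.832 and 0.0646 (edgeR quasi-likelihood test, Benjamini-Hochberg). The difference between them was −5.03 ± 0.76, with adjusted p = 0.0427 in the same test. Groups are named below by their labels only, and a direction on chow is that between the libraries so labelled. Whether the genotype labels on chow are exchanged was not tested. If they were, the difference of genotype effects below would be the sum of 2 genotype effects. These would share a direction only where the 2 comparisons have opposite signs as labelled, as in 54.9% of members. The diet comparisons and the comparison of ApoeKO_HFD with WT_CD would then be between other groups than their labels say.

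All 162 members were among the 16932 genes that passed the filter on low counts. A gene is said to be called when its adjusted p from the edgeR quasi-likelihood test, adjusted by Benjamini-Hochberg over all genes tested, was under 0.05. Members were called 7 times over 6 comparisons, and these calls fell on 3 genes, Hif3a, Ccdc9 and Sae1. Shares are of calls in either direction. In the difference of the genotype effects, high fat diet minus chow, 3 of 162 members (1.85%) were called, all of them higher, against 0.219% of all genes tested. Between ApoeKO_CD and WT_CD, 2 members (1.23%) were called, both lower, against 0.508% of genes tested. Between WT_HFD and WT_CD, 1 member (0.617%) was called lower, against 0.207%. Between ApoeKO_HFD and ApoeKO_CD, 1 member (0.617%) was called higher, against 0.0709%. No member was called between ApoeKO_HFD and WT_CD, where 0.154% of genes tested were, or between ApoeKO_HFD and WT_HFD, where 0.0472% were. An unadjusted p under 0.05 was reached there by 30 members (18.5%, against 14.2% of genes tested) and by 18 members (11.1%, against 2.83% of genes tested). DESeq2 called 2 members in the first of these comparisons and 1 in the other, against 1.43% and 0.194% of the genes it adjusted. The comparisons share libraries: WT_CD enters 3 of the 5 pairwise ones and ApoeKO_HFD also enters 3. Every ApoeKO_HFD library was below both WT_HFD libraries in 10.3% of genes tested, and above both in 11.3%. Such shares were 7.67% and 8.92% between ApoeKO_CD and WT_CD, and 7.22% and 8.42% between ApoeKO_HFD and WT_CD. They were 11.8% and 12.8% between WT_HFD and WT_CD, and 3.99% and 5.04% between ApoeKO_HFD and ApoeKO_CD. Single genes without overlap are to be read beside these shares.

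Leaving out a single library moved these counts. Without WT_CD replicate 2, the members called were 13 in the difference of effects, 29 between ApoeKO_CD and WT_CD, 20 between WT_HFD and WT_CD, 13 between ApoeKO_HFD and WT_CD, and 1 in each of the other comparisons. The share of all genes called in that fit was 1.7%, 10.8%, 6.09% and 7.79% in the first 4, and 0.0837% and 0.12% in the comparison of diets under the knockout label and of genotypes on the high fat diet. Of the members described below, Arhgap35, Arhgef1, Clasrp, Clptm1, Dhx34, Dmpk, Egln2, Inafm1, Irf2bp1, Itpkc, Map3k10, Ppp1r37, Sars2, Sipa1l3, Supt5, Zfp606 and Zfp974 were among the 29. For the other fits with a library dropped, the share of all genes called is not given. The count between ApoeKO_CD and WT_CD was 0 in the fits that dropped ApoeKO_CD replicate 1 or 3 or WT_CD replicate 3. It was 1 when ApoeKO_CD replicate 2, or replicate 2 or 3 of ApoeKO_HFD, was dropped. The count between WT_HFD and WT_CD was 0 in 9 of the 11 fits with a library dropped, those without ApoeKO_HFD replicate 1 and without WT_CD replicate 2 being the exceptions. The count in the difference of effects was 1 without WT_HFD replicate 2. A fit with all 12 libraries called no member in any of the 6 comparisons, and its share of all genes called is not given either.

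Hif3a encodes the third alpha subunit of the hypoxia-inducible factor family, whose splice forms can limit the activity of the other alpha subunits. It lies at chr7:17031507-17062427 on the minus strand, 2.66 Mb from the Apoe start, and had the widest changes of the 3 called genes at the lowest level. It had 2.92, 1.79 and 1.95 CPM in ApoeKO_HFD (122, 48 and 78 counts), against 0.394, 0.517 and 0.278 CPM in ApoeKO_CD (14, 13 and 11 counts). It had 0.548 and 0.245 CPM in WT_HFD (20 and 11 counts), against 2.21, 0.785 and 1.32 CPM in WT_CD (70, 20 and 35 counts). Every ApoeKO_HFD and WT_CD library was above every ApoeKO_CD and WT_HFD library. Hif3a rose in ApoeKO_HFD relative to ApoeKO_CD by 2.51 ± 0.43 (log2, SE), with adjusted p = 0.0298 by the edgeR quasi-likelihood test. This call was lost without any 1 of the 6 libraries compared: the adjusted p was 0.252, 0.0795 and 0.0977 without ApoeKO_HFD replicates 1, 2 and 3, and 0.23, 0.11 and 0.264 without ApoeKO_CD replicates 1, 2 and 3. Between ApoeKO_HFD and WT_HFD the difference was 2.51 ± 0.49, with adjusted p = 0.0897, and between ApoeKO_CD and WT_CD it was −1.89 ± 0.44, with adjusted p = 0.0617, both by the same test. Neither was called in the reported fit. Without WT_CD replicate 2 both were (adjusted p = 0.0236 and 0.00402), as by DESeq2 (0.00183 and 0.00884) and with no expression filter (0.000194 and 0.00284). With only the 2 groups fitted the first was called as well (0.0169). The difference between the 2 genotype effects was called, at 4.40 ± 0.66 with adjusted p = 0.00253 by the edgeR quasi-likelihood test. That was the smallest p of any member for the difference of effects. It held whichever of the 11 libraries was dropped.

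Ccdc9 encodes a coiled-coil protein that associates with the exon junction complex of spliced mRNA. It lies at chr7:16274042-16286795 on the minus strand, 3.42 Mb from the Apoe start. It had 8.97, 11.3 and 9.54 CPM in ApoeKO_HFD, against 7.37 and 5.66 CPM in WT_HFD, and 6.81, 6.64 and 7.03 CPM in ApoeKO_CD, against 16.1, 9.81 and 18.5 CPM in WT_CD. Neither genotype pair overlapped, and WT_CD replicate 2 was the lowest of its group and within the range of the ApoeKO_HFD libraries. Ccdc9 fell by 1.12 ± 0.20 (log2, SE) in ApoeKO_CD relative to WT_CD, with adjusted p = 0.0107 by the edgeR quasi-likelihood test, and by 1.19 ± 0.22 in WT_HFD relative to WT_CD, with adjusted p = 0.0317. The genotype difference on the high fat diet was 0.61 ± 0.22, with an unadjusted p of 0.013, and was not called. The difference of the 2 genotype effects was 1.73 ± 0.30, with adjusted p = 0.0134 by that test. It was lost without ApoeKO_HFD replicate 2 (adjusted p = 0.0595), ApoeKO_CD replicate 2 (0.052) or WT_HFD replicate 2 (0.128). The chow call was lost without any 1 of the ApoeKO_CD libraries or WT_CD replicate 3, at adjusted p of 0.0591 to 0.0754. The diet call was lost in 9 of the 11 fits with a library dropped, those without ApoeKO_HFD replicate 1 and without WT_CD replicate 2 being the exceptions, and with the block (adjusted p = 0.104).

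Sae1 encodes a subunit of the enzyme that activates SUMO, the small protein tag. It lies near Ccdc9, with Bbc3 between them in this set, at chr7:16320234-16387806 on the minus strand and 3.38 Mb from the Apoe start. It had 8.87, 7.73 and 8.59 CPM in ApoeKO_HFD, against 6.11 and 5.37 CPM in WT_HFD, and 5.65, 6.72 and 6.07 CPM in ApoeKO_CD, against 10.8, 10.045 and 9.70 CPM in WT_CD. As with Ccdc9, neither genotype pair overlapped. Unlike with Ccdc9, every WT_CD library was above all libraries of the other groups. Sae1 fell by 0.73 ± 0.15 (log2, SE) in ApoeKO_CD relative to WT_CD, with adjusted p = 0.0323 by the edgeR quasi-likelihood test. Its difference between WT_HFD and WT_CD was −0.83 ± 0.17, with adjusted p = 0.052 by that test, and was not called. It was called there with RLE factors, by DESeq2, with 50 counts in 3 libraries and without WT_CD replicate 2. The difference of the genotype effects was 1.28 ± 0.22, with adjusted p = 0.0153 by that test. The chow call was lost with the replicate block (adjusted p = 0.0718), with no expression filter (0.0516), with only the 2 groups fitted (0.106) and in 9 of the 11 fits with a library dropped, all but those without ApoeKO_HFD replicate 1 and without WT_CD replicate 2. The other call was lost with the block (0.0511) and without ApoeKO_HFD replicate 3 (0.063), ApoeKO_CD replicate 3 (0.0511), WT_HFD replicate 1 (0.12) or WT_HFD replicate 2 (0.243).

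**Figure D1:**
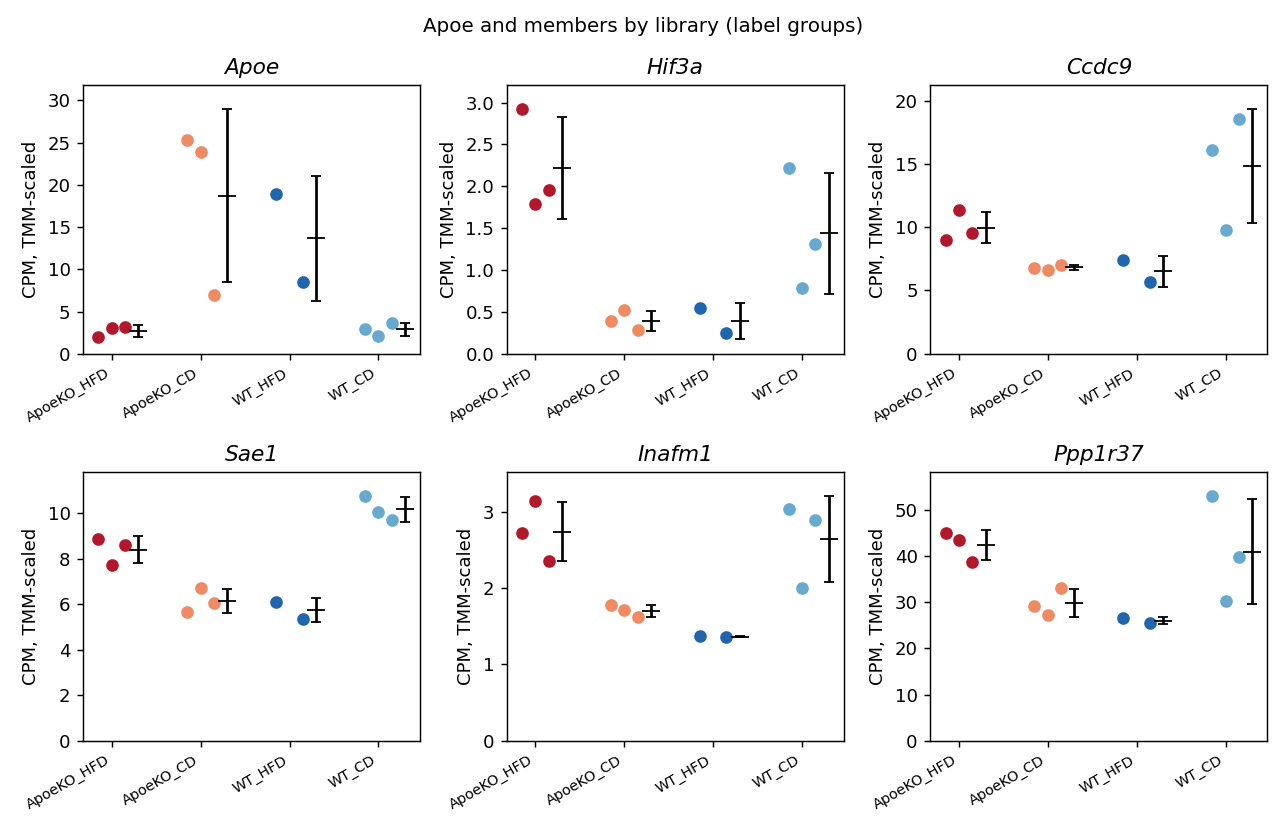
TMM-scaled CPM of Apoe, the 3 called members, Inafm1 and Ppp1r37 in each library, by label group. Each dot is a library and the black marks give the group mean and SD (n = 3, or 2 in WT_HFD). Hif3a, Ccdc9 and Sae1 are high in ApoeKO_HFD and WT_CD and low in ApoeKO_CD and WT_HFD, while Apoe lies the other way round.

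Hif3a, Ccdc9 and Sae1 were each called in 2 or more comparisons. The 250 bases before the RefSeq starts (GRCm38.p6) of Hif3a and Ccdc9 are shown, read on the minus strand from 5′ to 3′. The table of promoters held 144 of the 162 members and had no entry for Sae1. The window of Hif3a is chr7:17062428-17062677 and that of Ccdc9 is chr7:16286796-16287045. Capitals mark CCAAT, the letters bound by the factor NF-Y, and GCGTG on either strand, which is, like ACGTG, a form of the core of the hypoxia response element.
Hif3a: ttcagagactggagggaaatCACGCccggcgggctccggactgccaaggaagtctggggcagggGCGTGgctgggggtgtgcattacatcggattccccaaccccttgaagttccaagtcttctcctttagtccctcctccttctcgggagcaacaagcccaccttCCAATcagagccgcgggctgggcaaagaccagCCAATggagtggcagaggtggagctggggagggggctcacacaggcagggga
Ccdc9: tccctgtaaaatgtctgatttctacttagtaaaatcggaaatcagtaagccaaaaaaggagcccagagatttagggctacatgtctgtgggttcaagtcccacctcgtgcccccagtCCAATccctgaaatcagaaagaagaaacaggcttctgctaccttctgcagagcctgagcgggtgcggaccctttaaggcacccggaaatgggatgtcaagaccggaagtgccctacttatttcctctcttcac
CCAAT stood at 2 places in the Hif3a window and 1 in that of Ccdc9, and 33.8% of the 32851 windows of this length hold it on either strand. GCGTG stood at 2 places in the Hif3a window, once on each strand, and at none in that of Ccdc9, and 28.2% of all windows hold it. Neither window held ACGTG, the GC box GGGCGG or TATAAA on either strand, which were in 16.6%, 32.7% and 12.4% of all windows. The letters were searched on both strands, and these matches describe the sequence only. GC made up 62% of the Hif3a window and 48.8% of that of Ccdc9.

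The crossed arrangement of the 3 called genes was seen in other members that were not called. In 8 of 162 members (4.94%) every ApoeKO_CD library was below every WT_CD library and every ApoeKO_HFD library above every WT_HFD library, against 0.939% of all genes tested and 1.01% of those at 0.5 CPM or more. They were the 3 called genes, Inafm1, Irf2bp1, Dmpk, Ckm and Dhx34, the last of these named after its values were seen. The opposite arrangement, that of Apoe, was seen in 2 members (1.23%), Arhgap35 and Zfp974, against 0.945% of all genes tested and 1.14% of those at 0.5 CPM or more. Inafm1, a small gene beside Ccdc9, had 2.73, 3.13 and 2.35 CPM in ApoeKO_HFD, against 1.37 and 1.36 CPM in WT_HFD, and 1.77, 1.71 and 1.62 CPM in ApoeKO_CD, against 3.04, 2.00 and 2.89 CPM in WT_CD. Its difference of genotype effects was 1.64 ± 0.37 (log2, SE), with adjusted p = 0.0957 by the edgeR quasi-likelihood test. It was called by DESeq2 and without WT_CD replicate 2. Zfp974, a zinc finger gene 8.21 Mb from Apoe, had 1.34, 1.53 and 1.55 CPM in ApoeKO_HFD, against 2.41 and 1.83 CPM in WT_HFD, and 2.19, 1.51 and 1.69 CPM in ApoeKO_CD, against 0.822, 1.14 and 0.677 CPM in WT_CD. Its difference was −1.56 ± 0.43, with adjusted p = 0.261 by the edgeR quasi-likelihood test, and it was called without WT_CD replicate 2.

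**Figure D2:**
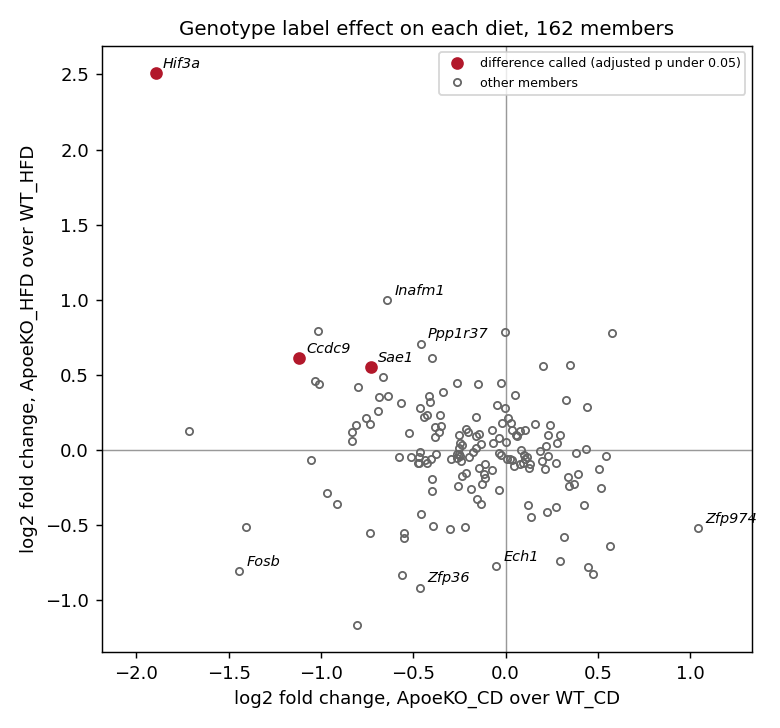
Fitted log2 fold change of each of the 162 members between ApoeKO_CD and WT_CD (x axis) and between ApoeKO_HFD and WT_HFD (y axis), comparisons that share no library. Filled dots are the 3 members whose difference of effects was called; they lie in the upper left, below 0 on chow and above 0 on the high fat diet.

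The comparisons of genotype on chow and on the high fat diet share no library. Across the 162 members their log2 fold changes had a Pearson correlation of −0.25 and 54.9% had opposite signs, and without the 3 called genes the correlation was −0.09. Across 16688 tested genes outside the interval it was −0.06, with 50.8% of opposite sign. The diet comparisons under the knockout and the wild-type label also share no library. Their log2 fold changes had a Pearson correlation of −0.41 over members and −0.27 without the 3 called, against 0.03 outside the interval. By rank it was −0.35, −0.32 and −0.02 in that order. Opposite signs were seen in 61.7% of members, against 52.4% of genes outside the interval. Members share a chromosome segment and the same libraries, so these values describe them and carry no p.

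Among the 12 muscle, contraction and calcium genes none was called in any of the 6 comparisons, against the shares of all genes given above. Ckm, the muscle creatine kinase that buffers ATP, was the member with the highest level per kb of transcript, at 156 TMM-scaled CPM per kb, followed by Ech1 at 78.7 and Dmpk at 63.6. Ckm had 581, 489 and 442 CPM in ApoeKO_HFD, against 342 and 398 CPM in WT_HFD, and 394, 383 and 468 CPM in ApoeKO_CD, against 509, 502 and 483 CPM in WT_CD. No overlap was seen in either pair, but its difference of effects, 0.71 ± 0.21 (log2, SE), had an adjusted p of 0.334 by the edgeR quasi-likelihood test. Dmpk, the kinase of myotonic dystrophy, had 272, 308 and 301 CPM in ApoeKO_HFD, against 232 and 226 CPM in WT_HFD, and 240, 216 and 269 CPM in ApoeKO_CD, against 349, 271 and 345 CPM in WT_CD. Its difference was 0.78 ± 0.21, with adjusted p = 0.232 by that test. It was called by DESeq2 and without WT_CD replicate 2.

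The other genes of this list were not called either. Calm3, a calmodulin gene, stayed between 40.5 and 50.3 CPM in all 11 libraries, and its 6 fitted log2 differences were between −0.04 and 0.02. Strn4, a striatin scaffold gene, had 24.1 to 29.5 CPM in ApoeKO_HFD, against 22.4 and 21.3 CPM in WT_HFD, and 23.4 to 25.9 CPM in ApoeKO_CD, against 23.9 to 26.8 CPM in WT_CD. Ryr1, the calcium release channel of skeletal muscle, was the member of this list with the lowest level, at 0.0524 CPM per kb. It had 0.741, 0.597 and 0.676 CPM in ApoeKO_HFD, against 1.80, 1.43 and 1.34 CPM in ApoeKO_CD, with no overlap and the lower values on the high fat diet. The fitted difference was −1.17 ± 0.32 (log2, SE), with an adjusted p of 1.00 by the edgeR quasi-likelihood test.

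**Figure D3:**
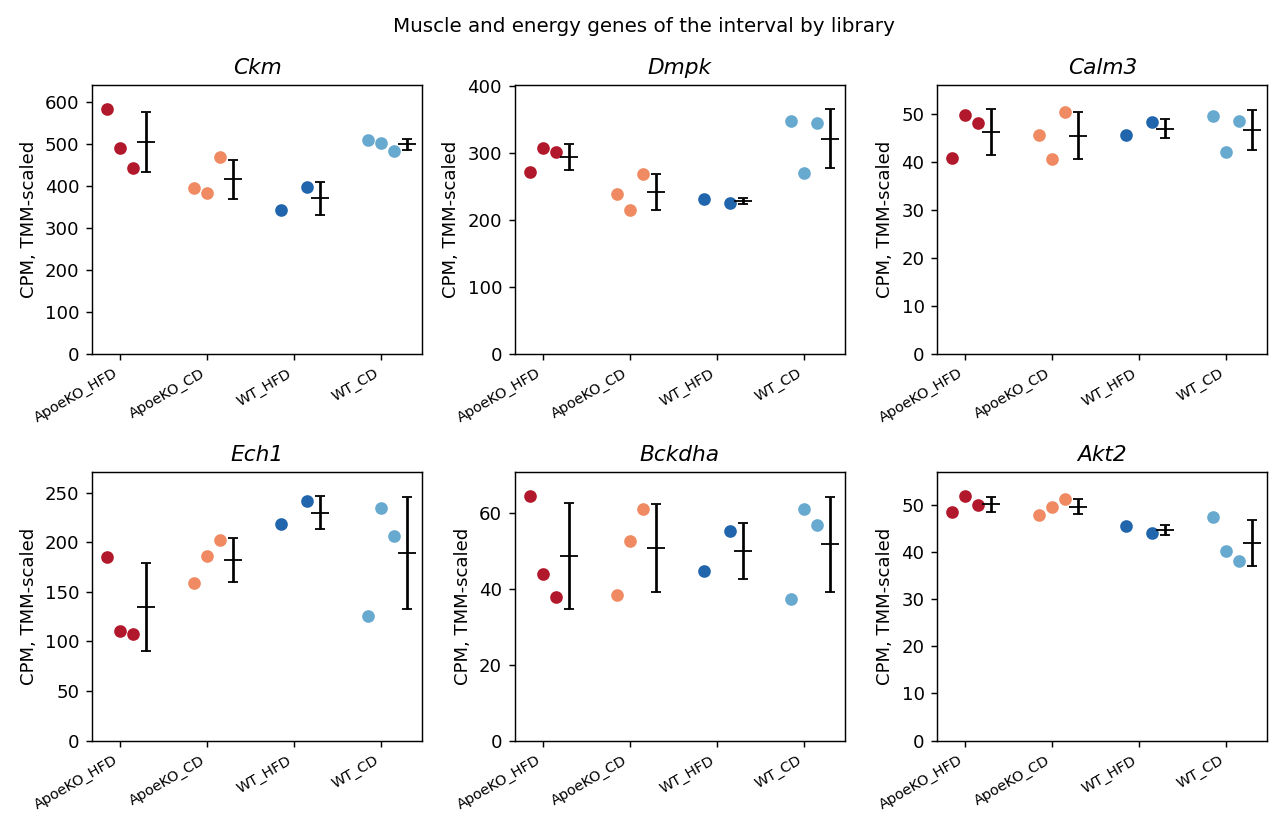
TMM-scaled CPM of 3 muscle genes (Ckm, Dmpk, Calm3) and 3 energy metabolism genes (Ech1, Bckdha, Akt2) in each library, by label group. Dots are libraries and black marks give the mean and SD (n = 3, or 2 in WT_HFD). Ckm and Dmpk show the crossed order of groups, while Calm3 and Bckdha overlap in all 4 groups.

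None of the 12 members for mitochondria and energy metabolism was called in any comparison, and their median log2 fold change was between −0.17 and −0.03 in the 6 comparisons, against −0.01 to 0.02 for all genes tested. Ech1, an isomerase of fatty acid oxidation, had 185, 111 and 108 CPM in ApoeKO_HFD, against 218 and 242 CPM in WT_HFD, and 159, 186 and 202 CPM in ApoeKO_CD, against 126, 234 and 206 CPM in WT_CD. It was lower in all ApoeKO_HFD than in both WT_HFD libraries, by −0.77 ± 0.25 (log2, SE), with an adjusted p of 1.00 by the edgeR quasi-likelihood test. Bckdha, the E1 alpha subunit of branched-chain ketoacid dehydrogenase, varied from 37.3 to 64.3 CPM with overlap of all groups. Akt2, a kinase of insulin signalling, had 48.6, 51.9 and 49.9 CPM in ApoeKO_HFD, against 45.5 and 44.0 CPM in WT_HFD, with a difference of 0.16 ± 0.13 that was not called. Opa3, a mitochondrial membrane gene, lay between 30.9 and 40.9 CPM in all libraries. Sars2, which charges mitochondrial serine tRNA, had 3.85, 4.44 and 3.43 CPM in ApoeKO_HFD, against 7.12, 4.98 and 6.32 CPM in WT_CD. The difference was −0.66 ± 0.19, with adjusted p = 0.173 by that test, and it was called without WT_CD replicate 2, at an adjusted p of 0.0195. In ApoeKO_CD it had 3.12, 3.18 and 4.02 CPM, below every WT_CD library, at −0.83 ± 0.19 with adjusted p = 0.0628 by the same test, and it was called there by DESeq2, with 50 counts in 3 libraries and without WT_CD replicate 2.

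The 2 lipid enzymes or lipid-associated genes among the members, Lipe and Ceacam1, were not called. Lipe, the hormone-sensitive lipase, had 9.35, 8.99 and 8.44 CPM in ApoeKO_HFD, against 12.2 and 13.1 CPM in WT_HFD, and 6.53, 13.6 and 9.15 CPM in ApoeKO_CD, against 11.04, 11.1 and 16.1 CPM in WT_CD. The high fat diet groups did not overlap and the chow groups did, with a difference of −0.50 ± 0.23 (log2, SE) on the high fat diet and an unadjusted p of 0.0419. Ceacam1, a cell adhesion receptor, had 0.376 to 2.37 CPM, with the widest spread among the WT_CD libraries.

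The list of oxygen sensing, TGF-beta and matrix genes had 6 members and held Hif3a. It accounted for 1 call between ApoeKO_HFD and ApoeKO_CD and 1 in the difference of effects, both Hif3a and both higher. Its median log2 difference of effects was 0.25, against 0.02 for all genes tested. Egln2, a prolyl hydroxylase that marks HIF-alpha proteins for degradation, had 13.3, 19.0 and 15.9 CPM in ApoeKO_HFD, against 12.2 and 13.4 CPM in WT_HFD, and 14.5, 10.7 and 15.7 CPM in ApoeKO_CD, against 20.4, 12.9 and 21.2 CPM in WT_CD. Both pairs of groups overlapped and it was not called. Ltbp4, which binds latent TGF-beta in the matrix, had 11.98, 12.2 and 17.8 CPM in ApoeKO_HFD, against 19.2 and 21.04 CPM in WT_HFD, with an unadjusted p of 0.0184. Spint2, a protease inhibitor, lay between 4.99 and 7.61 CPM in all libraries. Tgfb1, the growth factor TGF-beta 1, had 3.11, 2.20 and 2.76 CPM in ApoeKO_HFD, against 3.62 and 2.94 CPM in WT_HFD, and 2.98, 2.98 and 2.71 CPM in ApoeKO_CD, against 3.64, 2.79 and 4.9998 CPM in WT_CD. Both pairs of groups overlapped and it was not called.

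Of 13 NF-kappaB, immediate early and immune members none was called, and 6 had an unadjusted p under 0.05 between ApoeKO_CD and WT_CD, as did 15.9% of all genes tested. Their median difference there was −0.42 (log2), against −0.01 for all genes tested. Fosb, an immediate early transcription factor gene, had 7.26, 11.97 and 7.16 CPM in ApoeKO_CD, against 15.8, 31.1 and 24.4 CPM in WT_CD, and 9.85, 13.6 and 16.2 CPM in ApoeKO_HFD, against 30.1 and 16.2 CPM in WT_HFD. It was lower without overlap on chow, by −1.44 ± 0.31 (log2, SE), with an unadjusted p of 0.000453 and an adjusted p of 0.0628 by the edgeR quasi-likelihood test. Fosb was called there by DESeq2, with no expression filter, with 50 counts in 3 libraries, with only the 2 groups fitted, and without ApoeKO_CD replicate 2, either WT_HFD library or WT_CD replicate 1. Zfp36, tristetraprolin, which speeds decay of cytokine mRNAs, had 27.6, 20.6 and 18.6 CPM in ApoeKO_HFD, against 52.1 and 32.2 CPM in WT_HFD and 28.0, 39.2 and 44.1 CPM in WT_CD. The ApoeKO_HFD libraries were lowest in both cases. The difference was −0.92 ± 0.23 (SE) against WT_HFD and −0.73 ± 0.21 against WT_CD, with adjusted p = 0.517 and 0.165 by the edgeR quasi-likelihood test. With no expression filter both were called, and DESeq2 called the one against WT_CD. Irf2bp1, a transcription corepressor, had 7.03, 6.84 and 7.18 CPM in ApoeKO_CD, against 13.7, 9.73 and 10.5 CPM in WT_CD. Its difference was −0.69 ± 0.16 with adjusted p = 0.0564 by the edgeR quasi-likelihood test. It was called there by DESeq2, with RLE factors, with 50 counts in 3 libraries and without WT_CD replicate 2. Arhgef1, a guanine nucleotide exchange factor gene, and Map3k10, a stress kinase, averaged 17.5 and 11.7 CPM and were not called.

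The list headed DNA repair had 4 members, and none was called. They were Xrcc1, Ercc1, Lig1 and Cd3eap, the last of which is an RNA polymerase I subunit gene and not a repair gene. Xrcc1, a scaffold of single-strand break repair, had 5.04, 4.69 and 5.99 CPM in ApoeKO_CD, against 8.07, 7.49 and 7.10 CPM in WT_CD. The groups did not overlap and the unadjusted p was 0.0044, at −0.52 (log2).

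None of the 17 transcription, RNA processing and translation members was called, though 16 of 17 had a negative log2 difference between ApoeKO_HFD and WT_CD, where 65.4% of members and 50.7% of all genes tested did. Supt5, a subunit of the elongation factor DSIF, had the smallest p of any member in that comparison. It had 31.8, 28.0 and 28.3 CPM in ApoeKO_HFD, against 42.4, 38.8 and 48.1 CPM in WT_CD. All ApoeKO_HFD libraries were lower, by −0.55 ± 0.13 (log2, SE), with adjusted p = 0.102 by the edgeR quasi-likelihood test. It was called without WT_CD replicate 2 and by DESeq2, and the lowest adjusted p of its alternatives was 0.00673. Hnrnpl, a splicing regulator, Sympk, a scaffold of mRNA 3′ end processing, and Cic, a transcription repressor, had 33.0 to 64.6, 34.5 to 49.9 and 27.1 to 41.3 CPM over the 11 libraries and were not called.

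Of the 10 members for proteasome, ubiquitin, SUMO and trafficking only Sae1 was called, lower between ApoeKO_CD and WT_CD and higher in the difference of effects. Clptm1, a membrane protein gene 65 kb from Apoe, had 30.9, 36.9 and 37.1 CPM in ApoeKO_CD, against 27.2, 25.6 and 24.8 CPM in WT_CD, and 34.2, 31.9 and 31.8 CPM in ApoeKO_HFD, against 31.8 and 33.0 CPM in WT_HFD. It was higher without overlap on chow, by 0.43 ± 0.12 (log2, SE), with adjusted p = 0.102 by the edgeR quasi-likelihood test. There it was called by DESeq2 and without WT_CD replicate 2. Napa, a membrane fusion factor, and the proteasome subunits Psmd8 and Psmc4 averaged 19.8, 15.98 and 14.01 CPM and were not called.

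Of 29 zinc finger members none was called, and their median log2 difference between ApoeKO_CD and WT_CD was 0.10 while that of all 162 members was −0.16. Zfp110, Zfp180, Zfp606 and Zfp574 had the highest levels, at 7.76, 7.41, 6.15 and 4.58 CPM on average over 11 libraries. Zfp574 was highest in WT_CD replicate 2, at 8.08 CPM, with 3.99 and 5.19 CPM in the other WT_CD libraries.

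The 10 members nearest to Apoe are Tomm40, Nectin2, Clptm1, Relb, Bcl3, Clasrp, Gemin7, Ppp1r37, Bloc1s3 and Pvr, and none was called. Genes left out by name for their genotype differences are not among them. Tomm40, the channel of the outer mitochondrial membrane, starts 5.2 kb from Apoe. It had 23.9, 21.3 and 18.5 CPM in ApoeKO_HFD, against 19.3 and 20.4 CPM in WT_HFD, and 20.8, 21.9 and 24.6 CPM in ApoeKO_CD, against 21.3, 17.6 and 25.4 CPM in WT_CD. Both genotype pairs overlapped. Nectin2, an adhesion receptor, had 9.88, 9.40 and 8.09 CPM in ApoeKO_HFD, against 13.2 and 11.6 CPM in WT_HFD, with an unadjusted p of 0.0308. Ppp1r37, a regulatory subunit of protein phosphatase 1 that lies 165 kb from Apoe, had the fourth smallest p of the members in the difference of effects. It had 45.2, 43.6 and 38.7 CPM in ApoeKO_HFD, against 26.5 and 25.5 CPM in WT_HFD, and 29.1, 27.3 and 33.2 CPM in ApoeKO_CD, against 53.1, 30.3 and 39.8 CPM in WT_CD. The chow groups overlapped through WT_CD replicate 2. The difference of effects was 1.17 ± 0.25 (log2, SE), with adjusted p = 0.0666 by the edgeR quasi-likelihood test. It was called without that library, by DESeq2 and with no expression filter.

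The other 6 of these 10 were not called either. Relb and Bcl3, NF-kappaB family genes, were low, at 1.31 to 2.60 and 0.510 to 1.39 CPM. Every pair of groups overlapped for Relb, while for Bcl3 the ApoeKO_HFD libraries were all below the WT_HFD ones. That order was seen in 10.3% of all genes tested. Clasrp, a splicing regulator, had 6.16 to 15.1 CPM, both ends of this range being WT_CD libraries, and was called in 4 of the 6 comparisons without WT_CD replicate 2. Pvr, the poliovirus receptor gene, stayed between 8.16 and 11.6 CPM, Gemin7, of the SMN complex, between 3.08 and 5.41 CPM, and Bloc1s3, of the lysosome-related organelle complex, between 0.285 and 0.970 CPM.

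The members were not spread evenly. Of the 162, 34 start within 1 Mb of Apoe, none from 1 to 2.5 Mb, 39 from 2.5 to 5 Mb and 89 from 5 to 10 Mb. Neither the 34 nearest nor the 89 farthest held a call in any comparison. The genes left out by name had been chosen from genotype differences of these same libraries and are absent from these counts. Whether close neighbours of Apoe as a whole differ can therefore not be read from them. The 39 from 2.5 to 5 Mb held Hif3a, Ccdc9 and Sae1, all of them on the side of lower coordinates. In the difference of effects the median absolute log2 value was 0.39, 0.45 and 0.27 in these 3 distance classes, against 0.35 for all genes tested. For genotype on the high fat diet it was 0.22, 0.17 and 0.15, against 0.18. For diet under the knockout label it was 0.25, 0.17 and 0.12, against 0.14. For genotype on chow it was 0.29, 0.38 and 0.26, against 0.29, for diet under the wild-type label 0.23, 0.29 and 0.21, against 0.30, and for ApoeKO_HFD against WT_CD 0.16, 0.27 and 0.21, against 0.28. The nearest class was thus highest in 2 of the 6 comparisons, and the middle class in the other 4.

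**Figure D4:**
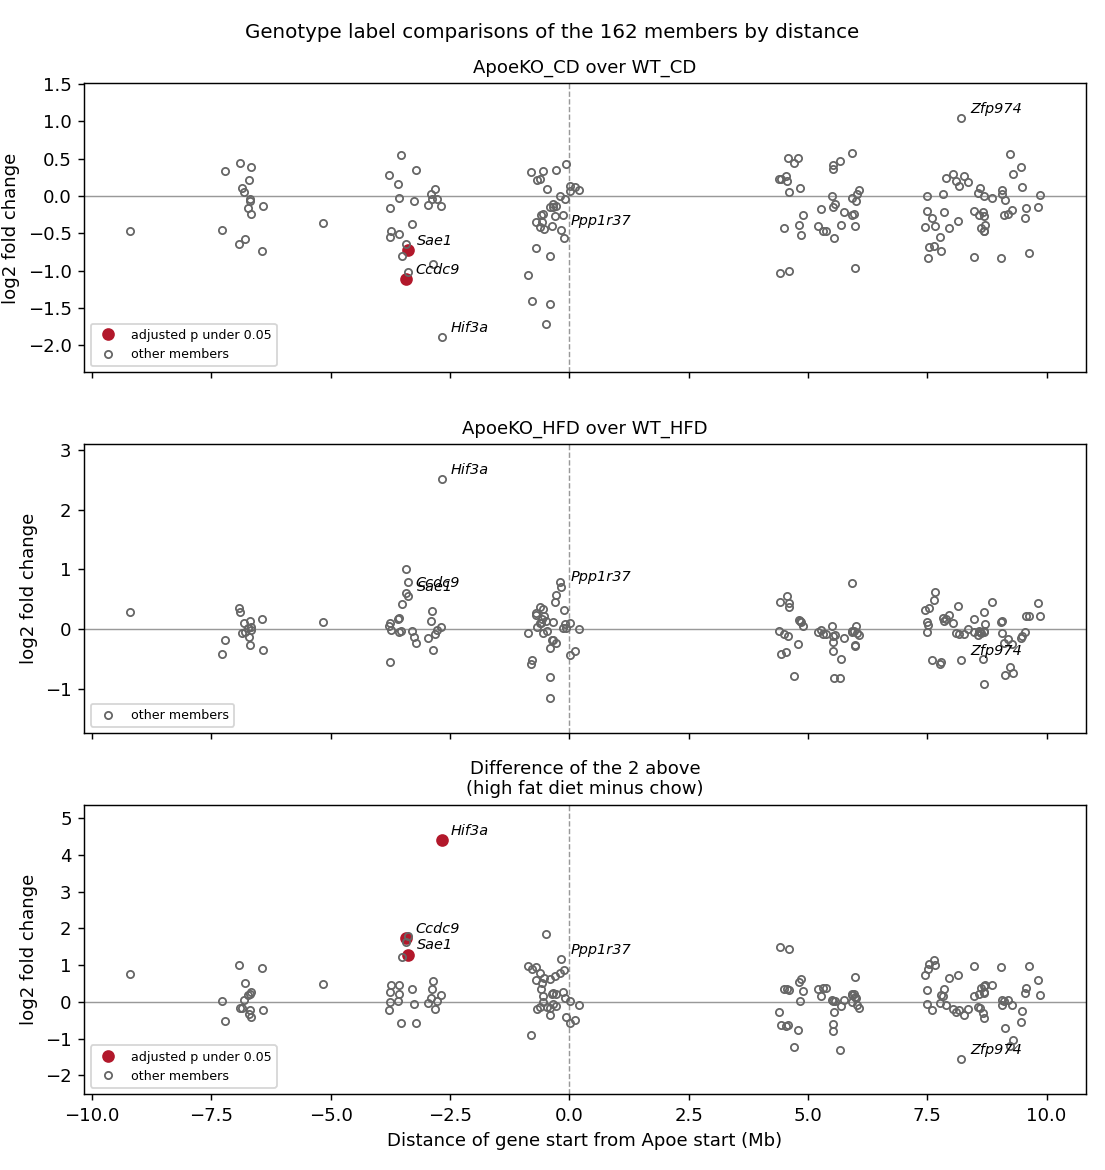
Fitted log2 fold change of the 162 members by distance of their start from the Apoe start in Mb, for genotype label on chow (top), on the high fat diet (middle) and the difference of these effects (bottom). Filled dots are called members, which lie 2.66 to 3.42 Mb from Apoe, and none of the 34 members within 1 Mb is filled. Genes left out by name for their genotype differences are not shown.

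The remaining members with the smallest p were Itpkc and Sipa1l3. Itpkc, an inositol trisphosphate kinase, had 2.25, 2.13 and 1.83 CPM in ApoeKO_HFD, 2.33, 1.59 and 2.00 CPM in ApoeKO_CD and 2.03 and 1.94 CPM in WT_HFD, against 3.42, 3.45 and 3.76 CPM in WT_CD. The WT_CD libraries were above all others. The difference between ApoeKO_HFD and WT_CD was −0.78 ± 0.22 (log2, SE), with adjusted p = 0.165 by the edgeR quasi-likelihood test. Sipa1l3, which encodes a regulator of Rap GTPases, had 3.99, 5.19 and 5.28 CPM in ApoeKO_HFD and 4.38 and 3.94 CPM in WT_HFD, against 8.57, 6.04 and 8.80 CPM in WT_CD. It too was highest in WT_CD. Its difference between WT_HFD and WT_CD was −0.91 ± 0.23, with adjusted p = 0.135 by that test. Both were called without WT_CD replicate 2, and Sipa1l3 between WT_HFD and WT_CD also by DESeq2.

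Members had a median log2 difference below 0 in 4 of the 6 comparisons: −0.11 between ApoeKO_HFD and WT_CD, −0.07 between WT_HFD and WT_CD, −0.16 between ApoeKO_CD and WT_CD, and −0.02 between ApoeKO_HFD and WT_HFD, while the medians of all genes tested were −0.01, −0.01, −0.01 and 0.01. It was 0.04 for diet under the knockout label and 0.16 for the difference of effects, against 0.01 and 0.02. Transcripts of members were richer in GC, with a median of 55.5%, against 49.0% in 12175 genes outside the interval at the same level threshold, and 99 of 162 members fell into the highest of 4 equal classes of those genes by GC. In that class the members had a median of −0.18 between ApoeKO_CD and WT_CD and the genes outside −0.17, while in the lowest class the medians were 0.17 in the 12 members there and 0.23 outside. Between ApoeKO_HFD and WT_CD the highest class had −0.13 in members and −0.11 outside. Between WT_HFD and WT_CD it had −0.07 in members and −0.14 outside. In the classes between, members were lower than the genes outside: between ApoeKO_CD and WT_CD the medians were −0.21 in 9 members and 0.08 outside in the second class, and −0.16 in 42 members and −0.05 outside in the third class. The part of GC in the values of single members was not tested.

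**Figure D5:**
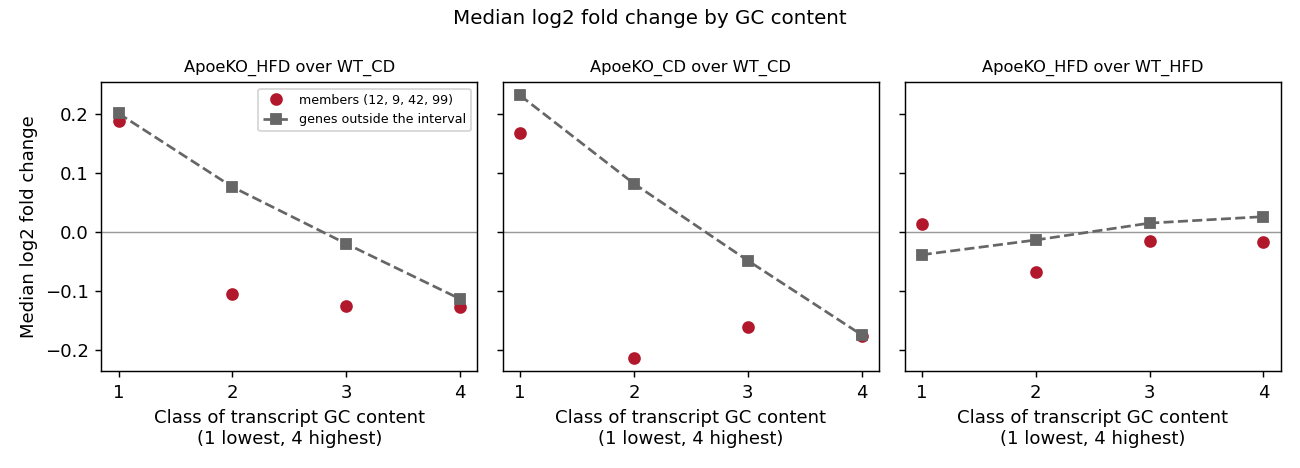
Median fitted log2 fold change of members (circles, with their number in each class) and of genes outside the interval (squares) by class of transcript GC content, 1 to 4 from low to high, for 3 comparisons. In the 2 comparisons with WT_CD shown, the genes outside fall as GC rises. In the highest class there the 99 members lie close to them, at −0.18 against −0.17 between ApoeKO_CD and WT_CD. Members in the 2 middle classes lie lower. The comparison of WT_HFD with WT_CD is not shown.

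Mean TMM-scaled levels of members over the 11 libraries ranged from 0.509 to 454 CPM, with a median of 4.48. By plain CPM, on which the threshold was set, the members just inside it were Nlrp5-ps, 4732471J01Rik and Bbc3, at 0.503, 0.520 and 0.521 CPM, and the genes just outside it were Gm17981, Map4k1 and C5ar2, at 0.4997, 0.469 and 0.467 CPM. Arhgap35, a GTPase-activating protein, was the highest member with the order of groups that Apoe had. It had 46.4, 53.7 and 54.0 CPM in ApoeKO_HFD, against 63.9 and 57.2 CPM in WT_HFD, and 53.7, 54.8 and 56.9 CPM in ApoeKO_CD, against 40.8, 46.6 and 42.9 CPM in WT_CD. Its difference of effects was −0.58 ± 0.18 (log2, SE), with adjusted p = 0.392 by the edgeR quasi-likelihood test. In exons, 8 members overlap another gene on the same strand and 47 one on the other strand. The 3 called members overlap neither, while Ckm, Bckdha, Itpkc and Zfp36 overlap a gene on the other strand only, which a stranded library can tell apart.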

How the data were processed

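The deposited files hold whole-number counts of reads per gene, one file per library, with no normalization per the file headers and values. Per the labels' protocols, libraries were made with a stranded SMART-Seq kit. Trimmomatic 0.39, STAR 2.7a, HTSeq 0.13.5 and the build GRCm38 (mm10) are named in the submitters' processing notes. Gene symbols, positions and GC came from GENCODE M21, which matched 55154 of 55335 identifiers and left 181 unmatched.

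The test was that of edgeR 4.0.16 (R 4.3.3), with TMM factors, filterByExpr by group, 1 mean per group over 11 libraries, 7 residual degrees of freedom, the robust quasi-likelihood F test and Benjamini-Hochberg adjustment over 16932 genes in each of 6 comparisons. The common biological coefficient of variation was 0.2. The fitting steps were tested on simulated data. P-values measure the spread between libraries, which may be technical. CPM of single libraries are TMM-scaled.

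A gene of the interval that met the rule is not reported here and is not counted among the members. The members, the 9 gene lists and the tests were chosen with earlier results of these data known. Genes named are those called, the 5 smallest p in each comparison, the 10 nearest to Apoe, the 10 highest in mean CPM, the 4 highest of each list, and the 3 on each side of the level threshold. Predicted genes and pseudogenes were named only where called, among the smallest p or at the threshold. Alternatives were RLE factors, DESeq2 1.42.0, other filters, all 12 libraries, only the groups compared, a replicate block, each library left out in turn, a 5 Mb window and a level of 1 CPM.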

Additional observations from a re-analysis of the deposited data

Results flagged for a closer look

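In 3 members the genotype label effect on the high fat diet differed from that on chow by the edgeR quasi-likelihood test of the difference itself. The difference (log2, high fat diet minus chow) was 4.40 for Hif3a, 1.73 for Ccdc9 and 1.28 for Sae1. Each was above 0 in the high fat comparison and below 0 on chow, with no overlap of libraries in either. Apoe was low in ApoeKO_HFD and WT_CD, where these genes were high, and on chow it went against the genotype labels, so the difference holds between groups as labelled.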

How the results depend on the processing

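Alternatives were run for 30 fold changes of single members, the 5 smallest p in each comparison, and for the counts of members called. None of the 30 changed sign, and of their 535 alternative values 448 kept their side of the threshold, 39 passed it and 48 lost it. Members called are given in this order: ApoeKO_HFD against WT_CD, ApoeKO_HFD against ApoeKO_CD, WT_HFD against WT_CD, ApoeKO_CD against WT_CD, ApoeKO_HFD against WT_HFD, and the difference of genotype effects, with 0, 1, 1, 2, 0 and 3 in the reported fit. DESeq2 called 2, 1, 5, 15, 1 and 7, against 1.43%, 0.0402%, 1.16%, 2.75%, 0.194% and 0.494% of the genes it adjusted. With no expression filter the counts were 3, 1, 4, 5, 4 and 5, against 0.605%, 0.0531%, 0.556%, 0.97%, 0.1% and 0.215% of 48951 genes, and those between ApoeKO_HFD and WT_HFD were Ech1, Fosb, Hif3a and Zfp36. With 50 counts in 3 libraries they were 0, 1, 2, 5, 0 and 3. With all 12 libraries they were 0 in all 6. With only the 2 groups compared they were 0, 1, 0, 2 and 2 in the 5 pairwise comparisons. RLE factors gave 0, 1, 2, 3, 0 and 3. For the fits with 50 counts in 3 libraries, all 12 libraries, only the 2 groups compared and RLE factors, the share of all genes called is not given. Their counts therefore cannot be set against it. A window of 5 Mb (73 members) or a level of 1 CPM (147 members) gave the same counts as the reported fit. Leaving out 1 library gave ranges of 0 to 13, 0 to 1, 0 to 20, 0 to 29, 0 to 1 and 1 to 13. The cause of these shifts was not tested. Fits without a library have fewer samples, and the counts fell in some of them and rose in others.

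With replicate number as a block the counts were 0, 1, 0, 1, 0 and 2, also without a share of all genes beside them. Same-numbered libraries of different groups formed 15 pairs. Their deviations from group means correlated at −0.18 to 0.19 and passed 0.1 in 1 pair, so the numbers were not taken to pair the libraries. Depth limits Hif3a most among the called genes, with 11 to 20 counts in the libraries where it was low. WT_HFD rests on 2 libraries.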
